A study of Homo sapiens with 12 samples.

Results

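Mucins and trefoil factors are the main secreted and surface products of mucous epithelia. The 10 genes followed here are 7 mucins, MUC1, MUC4, MUC5AC, MUC5B, MUC13, MUC16 and MUC20, and 3 trefoil factors, TFF1, TFF2 and TFF3. They were chosen by name, by summing their transcripts to genes with GENCODE v44 symbols. Of the 10, 9 had transcripts in the table, out of 39099 genes in all, and MUC5AC, a gel-forming mucin of the stomach and airway, was not matched to any transcript and was not analysed here. RNA was sequenced from 2 established cell lines of human pancreatic cancer, AsPC-1 and PANC-1. Each line was studied as mock cells, as cells overexpressing TAp63 and as cells overexpressing deltaNp63, with 2 biological replicates per group and 12 libraries in all. TP63 is a transcription factor gene of the p53 family that is active in basal and squamous epithelium. Its upstream promoter gives TAp63, with an N-terminal activation domain, and its internal promoter gives deltaNp63, which lacks that domain. The labels do not say whether replicates came from separate cultures, so p-values measure the spread between these samples. The vector, the length of overexpression and whether clones or pools were used are not given in the sources used here.

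Transmembrane mucins such as MUC1, MUC4, MUC13 and MUC16 carry a heavily O-glycosylated outer domain on an anchored stem and coat the apical side of epithelial cells. Gel-forming mucins such as MUC5AC and MUC5B are secreted and link into the polymers of mucus. Trefoil factors are small, disulfide-rich peptides secreted together with mucins, and are known for their part in the repair of mucosal surfaces. In pancreatic cancer, MUC1, MUC4, MUC5AC and the trefoil factors are known as products of glandular, classical-type tumours, whereas TP63 is a marker of the squamous type.

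No matched member other than MUC1 exceeded 5.42 TPM in any library, and MUC1 lay between 4.44 and 18.5 TPM. Values are TPM, a relative abundance corrected for transcript length, so levels may be compared between genes. TPM keeps no read depth, so the precision comes from the replicates alone. A gene was tested if it reached 1 TPM in at least 2 of the 12 libraries, which 14767 genes did. MUC1, TFF1, TFF2 and TFF3 passed, and MUC4, MUC5B, MUC13, MUC16 and MUC20 did not and are given by their values. Neither construct changed any of the 4 tested members past the threshold in either line. MUC1, which reached 1 TPM in all 12 libraries, passed as lower in PANC-1 mock cells than in AsPC-1 mock cells. TFF1 and TFF2 reached 1 TPM in AsPC-1 libraries alone (4 and 6 of them), so they were tested only because they were high in that line, and their lower PANC-1 levels are given as a description. A large share of the MUC1 value, in both lines, was assigned to a single transcript of 2 exons.

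The sequences of that transcript and of the canonical MUC1 transcript are shown because they differ in where the second exon begins. MUC1 (ENSG00000185499) lies on the minus strand of chromosome 1 from 155185824 to 155192916 in hg38. The transcript ENST00000466913 (MUC1-215) is 177 bases long, with exons at 155192786 to 155192916 and 155192202 to 155192247, and GENCODE gives it no coding frame. The canonical transcript ENST00000620103 starts its second exon at 155192283, 36 bases before the second exon of MUC1-215. Both are written 5′ to 3′ from the MUC1 start codon to the end of the second exon of MUC1-215, with 10 bases on each side of the first junction in capitals.
MUC1-215: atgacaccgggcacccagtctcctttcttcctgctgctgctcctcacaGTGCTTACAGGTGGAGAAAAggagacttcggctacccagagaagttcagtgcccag
MUC1 canonical: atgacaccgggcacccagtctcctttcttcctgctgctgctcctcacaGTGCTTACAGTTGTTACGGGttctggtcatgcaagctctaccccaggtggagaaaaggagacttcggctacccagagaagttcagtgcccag
The stretch covers chr1:155192202-155192843 and is 104 bases in MUC1-215 and 140 bases in the canonical form. Of the 19 other MUC1 transcripts in the table, 16 hold the 58 first-exon bases of this stretch and 16 hold the 46 second-exon bases. The junction of MUC1-215 occurs in 1 GENCODE MUC1 transcript, itself, whereas the canonical junction occurs in 11, of which 9 are in the table. Another junction from the same first exon, to a second exon that starts at 155192310, also occurs in 11, of which 7 are in the table. The canonical transcript itself, of 1811 bases, was not matched in the table, and the longest MUC1 transcript in the table has 1189 bases. MUC1 also overlaps ENSG00000273088 on the same strand, which averaged 0.0338 TPM in AsPC-1 libraries and 0.992 TPM in PANC-1 libraries, so a part of either value is uncertain.

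MUC1, the epithelial surface mucin whose cytoplasmic tail takes part in growth factor signalling, was the most abundant member in every library. Among AsPC-1 libraries it was at 13.9 and 14.9 TPM in mock cells, 18.5 and 15.2 TPM in TAp63 cells, and 11.7 and 14.9 TPM in deltaNp63 cells. The PANC-1 values were 8.76 and 6.37 TPM in mock cells, 10.2 and 4.44 TPM in TAp63 cells, and 11.5 and 6.69 TPM in deltaNp63 cells. Every AsPC-1 library lay above every PANC-1 library, and within PANC-1 the values of each construct spanned those of mock or overlapped them. In the same order, AsPC-1 group means were 14.4 ± 0.704, 16.9 ± 2.35 and 13.3 ± 2.31 TPM, and PANC-1 group means were 7.57 ± 1.69, 7.34 ± 4.10 and 9.07 ± 3.36 TPM (SD, n = 2). By rank, 6804 of the 39099 genes had a higher mean than MUC1 in AsPC-1 mock cells and 9074 in PANC-1 mock cells.

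The 2-exon transcript MUC1-215 took 40.1% to 57.9% of the MUC1 value in the 6 AsPC-1 libraries (median 48.6%) and 49.1% to 87.4% in the 6 PANC-1 libraries (median 76.3%). Its level overlapped between the lines, with a range of 5.22 to 10.7 TPM for AsPC-1 and of 2.18 to 10.01 TPM for PANC-1. The other 19 transcripts together held 6.43 to 8.92 TPM in AsPC-1, well above the 1.44 to 2.26 TPM of PANC-1. Thus the mean over 6 libraries was 1.86 times as high in AsPC-1 as in PANC-1 for the whole gene, 1.18 times for MUC1-215 and 4.06 times for the other transcripts. The other transcripts did not overlap between the lines, and the wide spread between PANC-1 replicates came mostly with MUC1-215: the TAp63 replicates held 8.30 and 2.18 TPM of it against 1.94 and 2.26 TPM of the other transcripts. How the reads were assigned to transcripts is not given in the sources used here, and its part in these values was not tested.

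**Figure D1:**
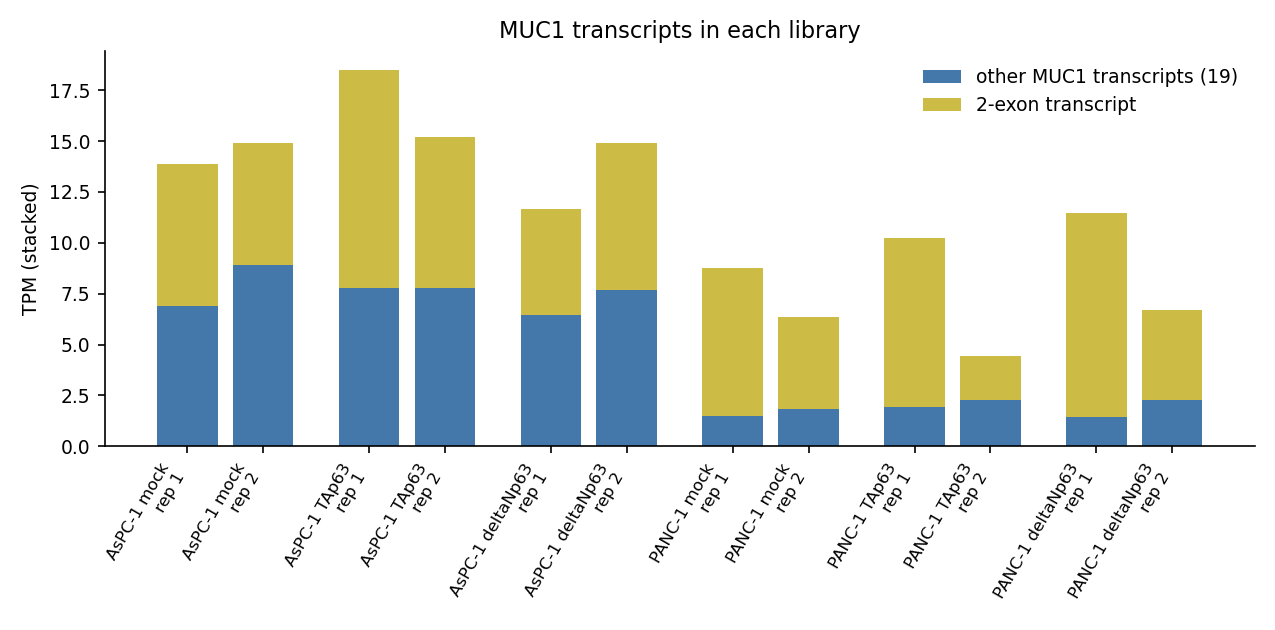
Stacked bars of MUC1 TPM in each of the 12 libraries, split into the 2-exon transcript MUC1-215 and the sum of the 19 other transcripts; there are no error bars because each bar is 1 library. The lower segment stays between 6.43 and 8.92 TPM in AsPC-1 libraries and between 1.44 and 2.26 TPM in PANC-1 libraries. The upper segment overlaps between the lines, at 5.22 to 10.7 TPM in AsPC-1 and 2.18 to 10.01 TPM in PANC-1, where it reaches lower.

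Among the other MUC1 transcripts, the largest in AsPC-1 was MUC1-217, a retained-intron form, at a mean of 2.60 TPM against 0.748 TPM in PANC-1. The protein-coding MUC1-214 followed at 1.52 against 0.389 TPM, and the protein-coding MUC1-208 at 1.35 against 0.107 TPM (means over 6 libraries each). All 3 were higher in AsPC-1 by mean.

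The remaining transmembrane mucins were near the bottom of the range. MUC4 (chromosome 3, 195746765 to 195811973), a large mucin that can associate with ERBB2, lay between 0.108 and 0.268 TPM in AsPC-1 libraries and between 0.0973 and 0.328 TPM in PANC-1 libraries, so the lines overlapped. MUC13 (chromosome 3, 124905442 to 124953819), an intestinal surface mucin, was listed at 0 in all 6 PANC-1 libraries and in 3 of 6 AsPC-1 libraries, with a highest value of 0.712 TPM in an AsPC-1 TAp63 library. Its canonical transcript, of 2879 bases, was not among the matched rows, and the longest MUC13 transcript there has 593 bases. The part of this in its low values was not tested. MUC16 (chromosome 19, 8848844 to 9010390), the carrier of the CA125 antigen and a ligand of mesothelin, was listed at 0 in 4 of 6 AsPC-1 libraries and lay between 0.0083 and 0.0807 TPM in PANC-1. MUC20 (chromosome 3, 195720884 to 195741123), a neighbour of MUC4 on the opposite strand, reached 0.540 TPM in AsPC-1 with 1 library at 0, and was at most 7.94e-05 TPM in PANC-1. MUC20 overlaps MUC20-OT1, so part of its value is uncertain. The gel-forming MUC5B (chromosome 11, 1223066 to 1262172) held 0.200 to 0.303 TPM in AsPC-1 libraries and 0.0223 to 0.0545 TPM in PANC-1 libraries, and these ranges did not overlap. Its antisense partner MUC5B-AS1 was listed at 0. None of the 5 reached 1 TPM in any library.

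**Figure D2:**
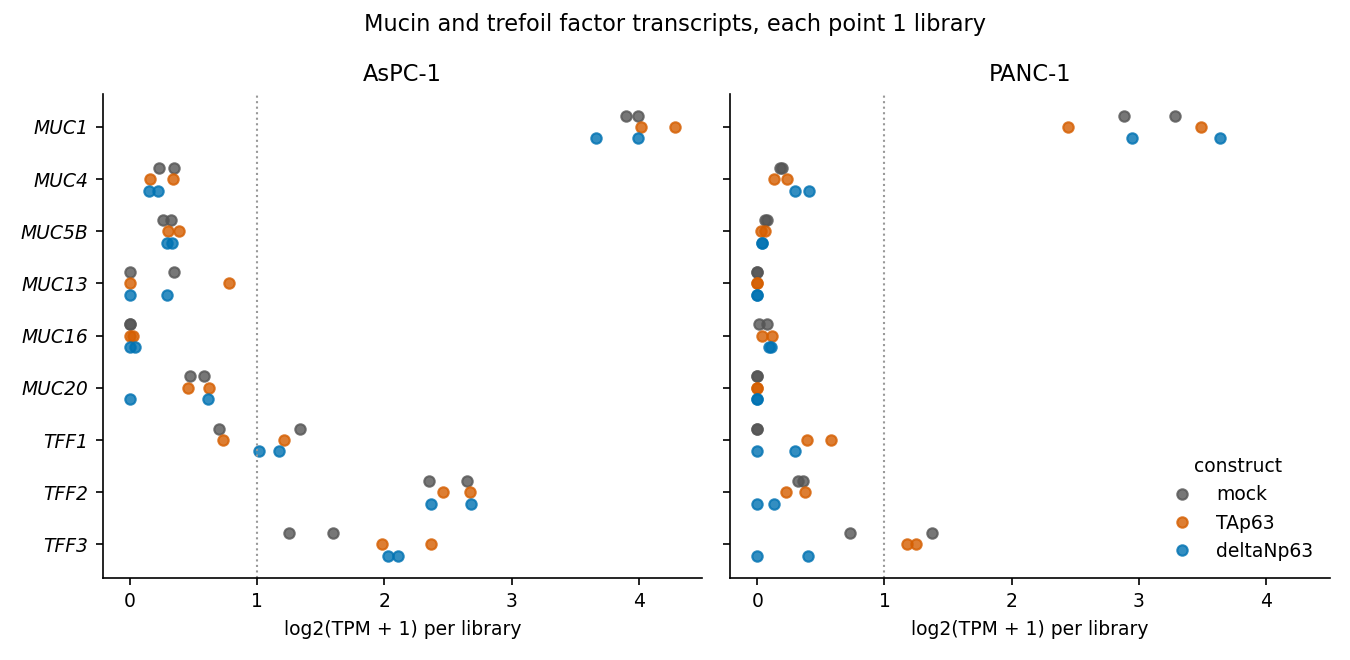
Level of each matched member as log2(TPM + 1), with 1 point per library, coloured by construct, in AsPC-1 (left) and PANC-1 (right). The dotted line marks 1 TPM, the level used in the filter: MUC1 lies to the right of it in all 12 libraries, and MUC4, MUC5B, MUC13, MUC16 and MUC20 lie to the left of it in all 12.

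The 3 trefoil genes lie side by side on the minus strand of chromosome 21, with TFF3 at 42311667 to 42315409, TFF2 at 42346357 to 42350997 and TFF1 at 42362282 to 42366535. TFF2, the trefoil peptide of gastric mucous neck cells, was the highest of them in AsPC-1. Its AsPC-1 values were 5.27 and 4.11 TPM in mock cells, 5.38 and 4.50 TPM in TAp63 cells, and 5.42 and 4.15 TPM in deltaNp63 cells. Its PANC-1 values were 0.286 and 0.250 TPM in mock cells, 0.294 and 0.169 TPM in TAp63 cells, and 0.0934 and 0 TPM in deltaNp63 cells. Both constructs left TFF2 within the range of mock or nearly so in AsPC-1, and the lines were far apart. The main protein-coding transcript, TFF2-201, held 91.6% of the mean TFF2 value in AsPC-1 and was listed at 0 in all 6 PANC-1 libraries, where TFF2-203, a form with no coding frame, held 73.1%.

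TFF1, the gastric trefoil peptide that pairs with MUC5AC and is known as an oestrogen-responsive gene in breast cancer, was near the filter. AsPC-1 mock libraries held 0.628 and 1.52 TPM, TAp63 libraries 0.664 and 1.31 TPM, and deltaNp63 libraries 1.02 and 1.25 TPM, with all groups overlapping. In PANC-1 both mock libraries were listed at 0, the TAp63 libraries were at 0.492 and 0.308 TPM, and the deltaNp63 libraries at 0.227 and 0 TPM.

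TFF3 is the intestinal trefoil peptide of goblet cells. AsPC-1 mock libraries held 1.38 and 2.02 TPM, TAp63 libraries 4.17 and 2.96 TPM, and deltaNp63 libraries 3.08 and 3.32 TPM. Both constructs lay above mock there with no overlap. PANC-1 mock libraries held 1.60 and 0.655 TPM, TAp63 libraries 1.37 and 1.26 TPM, and deltaNp63 libraries 0.318 and 0 TPM. There the TAp63 libraries lay between the mock libraries and the deltaNp63 libraries lay below the other 4. Its mean was divided between TFF3-201 (63.9% in AsPC-1, 30.8% in PANC-1) and TFF3-203 (36.1% and 69.2%).

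**Figure D3:**
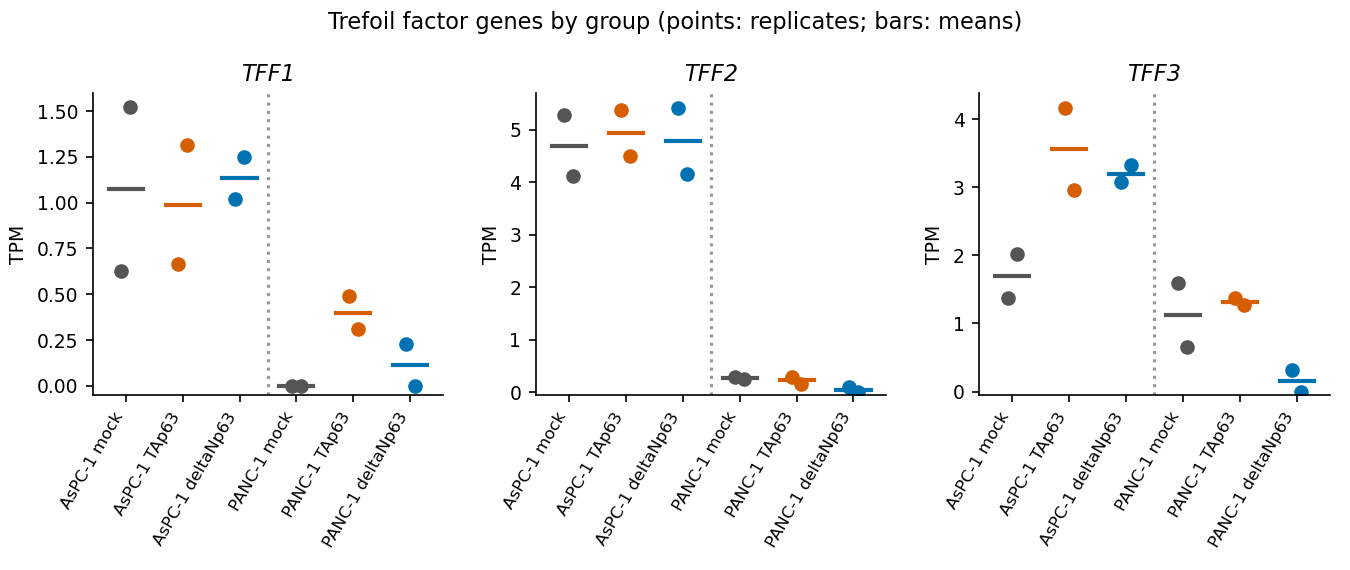
TPM of TFF1, TFF2 and TFF3 in the 6 groups; points are the 2 replicates, horizontal bars are their means, and the dotted line separates AsPC-1 from PANC-1. TFF2 stays between 4.11 and 5.42 TPM in AsPC-1 whatever the construct, whereas the TFF3 points of both constructs sit above mock in AsPC-1 and those of deltaNp63 sit below mock in PANC-1.

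The comparisons with mock ask how each p63 class bears on these products of glandular tumours. Values were compared as log2(TPM + 1), a scale that understates the change of low genes, with limma over all 14767 tested genes and Benjamini-Hochberg adjustment, at a threshold of 0.05. Counts at an unadjusted p under 0.05 are to be read against all tested genes, of which 2.34% to 29.7% had such a p in the construct comparisons and cell-line differences. TP63 itself rose from a mean of 0.958 TPM in AsPC-1 mock cells to 136 TPM in TAp63 cells and 298 TPM in deltaNp63 cells, and from 0.0719 to 333 and 1001 TPM in the PANC-1 groups.

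With TAp63 in AsPC-1, 0 of the 4 tested members passed, where 0.637% of all tested genes did. TFF3 was 0.75 higher (SE 0.238, 95% interval 0.22 to 1.29, limma adjusted p = 0.191, unadjusted p = 0.0103), with both TAp63 libraries above both mock libraries. It was the 1 member of 4 with an unadjusted p under 0.05, as 15.1% of all tested genes had. The interval of MUC1 ran from -0.52 to 0.94 around 0.21 and that of TFF2 from -0.30 to 0.43 around 0.06. These intervals use a spread shared by all 6 groups, PANC-1 included. In a fit of the AsPC-1 libraries alone the SE for MUC1 was 0.168 in place of 0.326, and MUC1 did not pass there either. TFF1 differed by -0.05. By range alone, 2 of 9 matched members, MUC1 and TFF3, lay wholly above mock, whereas 46.6% of all tested genes had groups that did not overlap in either direction.

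With deltaNp63 in AsPC-1, 0 of 4 members passed against 7.14% of all genes. TFF3 was 0.65 higher (SE 0.238, 95% interval 0.11 to 1.18, limma adjusted p = 0.108), the 1 member of 4 with an unadjusted p under 0.05 (0.0221), as 29.7% of all tested genes had. MUC1 differed by -0.12 (95% interval -0.85 to 0.61), TFF1 by 0.07 and TFF2 by 0.02. The median over all tested genes was -0.12 in this comparison, so these differences sit on a general shift of that size. MUC4 lay wholly below mock and TFF3 wholly above it, 2 of 9 members where 52.1% of all tested genes did not overlap. The constructs compared with each other gave 0 of 4 members in AsPC-1, against 0.0203% of all genes, and here MUC1 was 0.33 higher with TAp63 (95% interval -0.40 to 1.06, limma adjusted p = 0.788).

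In PANC-1, 0 of 4 members passed with TAp63, where 0.00677% of all genes did, which is 1 gene. TFF1, at 0 in both mock libraries, was 0.48 higher (95% interval -0.037 to 1.00, unadjusted p = 0.0653, limma adjusted p = 1), and no member had an unadjusted p under 0.05, which 3.41% of all tested genes had. TFF1 lay wholly above mock and MUC5B wholly below it, 2 of 9 members against 42.4% of all tested genes. With deltaNp63, 0 of 4 passed against 0.0406% of all genes. TFF3 was 0.85 lower on the log2 scale (log2 difference -0.85, 95% interval -1.38 to -0.32, unadjusted p = 0.00516, limma adjusted p = 1), and it was the 1 member of 4 with an unadjusted p under 0.05, beside 2.34% of all tested genes. The difference for TFF2 was -0.28 (95% interval -0.64 to 0.084). Here 5 of 9 members had groups that did not overlap, MUC4 and MUC16 higher and MUC5B, TFF2 and TFF3 lower, beside 27.1% of all tested genes; 3 of the 5 were below the filter in level.

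TAp63 against deltaNp63 in PANC-1 also gave 0 of 4 members, against 0.0271% of all genes. TFF3 was 1.01 higher with TAp63 (SE 0.238, 95% interval 0.48 to 1.55, unadjusted p = 0.00175, limma adjusted p = 0.923), and 2.96% of all tested genes had an unadjusted p under 0.05. The comparisons within a line share libraries, so they are not independent of each other.

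The effect of each construct was also compared between the lines. For TAp63, 0 of 4 members differed, where 0.0745% of all genes did, and none had an unadjusted p under 0.05, beside 10.4% of all tested genes. For deltaNp63, 0 of 4 differed against 0.582% of all genes. TFF3 stood at 0.65 in AsPC-1 and -0.85 in PANC-1, a difference of -1.50 (SE 0.336, 95% interval -2.25 to -0.75, unadjusted p = 0.0013, limma adjusted p = 0.119), where 16.5% of all tested genes had an unadjusted p under 0.05. Without AsPC-1 deltaNp63 replicate 2 the TFF3 difference was -1.46 and passed (limma adjusted p = 0.0383), but without that library 2203 of 14724 tested genes passed, 14.96%, in place of 86 of 14767.

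**Figure D4:**
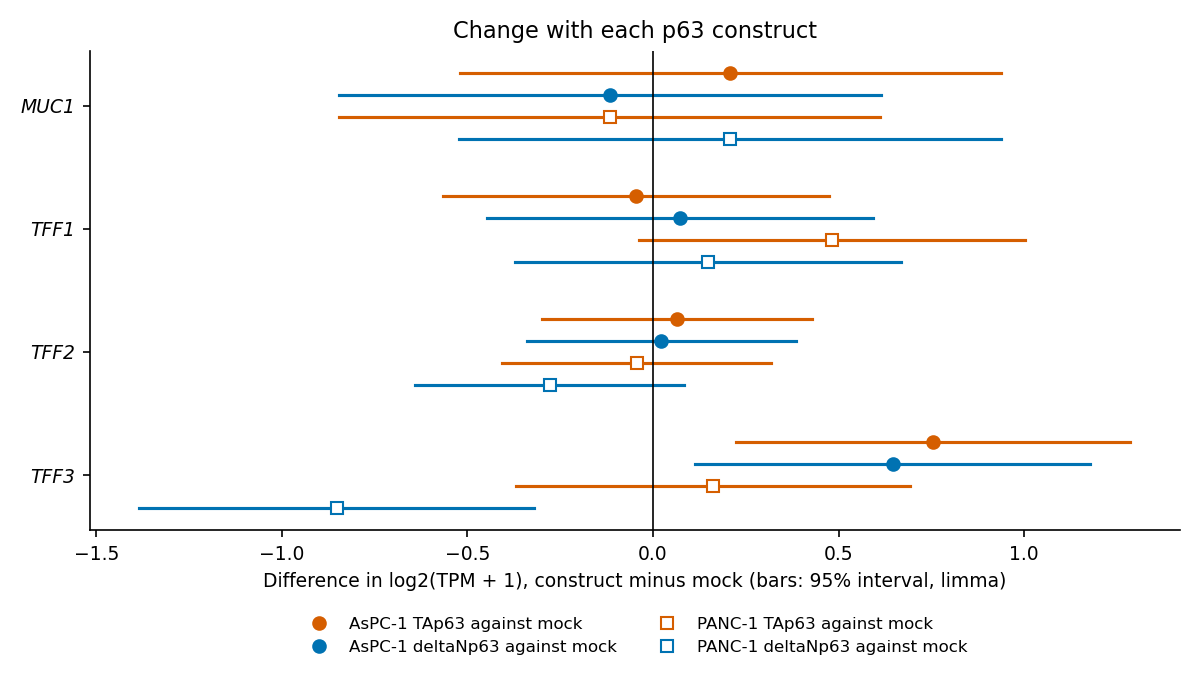
Difference in log2(TPM + 1) between each construct and mock for the 4 tested members; symbols are estimates (filled circles AsPC-1, open squares PANC-1), horizontal bars are 95% intervals from limma, and the vertical line is no change. The intervals of MUC1, TFF1 and TFF2 cover 0 in all 4 comparisons, and those of TFF3 lie above 0 for both constructs in AsPC-1 and below 0 for deltaNp63 in PANC-1; no member passed the threshold after adjustment over all genes.

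Between the mock cells of the lines, MUC1 was lower in PANC-1, with a difference of -0.86 (SE 0.326, limma adjusted p = 0.0363). Of all tested genes, 72.5% were called in that comparison and 27.9% were called lower in PANC-1. TFF1 and TFF2 entered the test through AsPC-1 alone, with highest PANC-1 values of 0.492 and 0.294 TPM, so a difference between the lines was built into their testing. Their differences, as descriptions, were -1.02 (SE 0.232) and -2.16 (SE 0.162), and TFF1 was listed at 0 in both PANC-1 mock libraries. TFF3, at -0.37, did not pass (limma adjusted p = 0.184).

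The MUC1 call did not hold without either AsPC-1 mock replicate or without PANC-1 mock replicate 2 (limma adjusted p = 0.0850, 0.119 and 0.188), and TFF3 passed without PANC-1 mock replicate 1 (-0.70, limma adjusted p = 0.0297). Without the 2-exon transcript, an alternative chosen after the data were seen, the MUC1 difference was -1.75 (SE 0.172, limma adjusted p = 7.5e-06), and the differences with TAp63 and deltaNp63 were -0.0094 and -0.14 within AsPC-1, and 0.23 and 0.095 within PANC-1, none past the threshold.

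Added over the 9 matched members, AsPC-1 libraries held 22.3 and 23.5 TPM (mock), 29.6 and 25.6 TPM (TAp63) and 21.6 and 24.8 TPM (deltaNp63). PANC-1 libraries held 10.8 and 7.52, 12.6 and 6.41, and 12.5 and 7.01 TPM in the same order. The sum is mostly MUC1, and every AsPC-1 library lay above every PANC-1 library. In a whole culture, fewer cells of a kind and less RNA per cell cannot be told apart.

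A list of 16 other mucins shows which mucins these lines did hold. MUC17, a membrane mucin of the intestinal brush border, was above MUC1 in AsPC-1 by mean, at 20.7 ± 0.0925 TPM in mock cells, 22.3 ± 4.47 TPM in TAp63 cells and 15.7 ± 0.504 TPM in deltaNp63 cells (SD, n = 2), and no PANC-1 library exceeded 0.0156 TPM. Its neighbour MUC12, also a membrane mucin, held group means of 10.4, 10.4 and 11.8 TPM among AsPC-1 cells and of 9.27, 8.18 and 6.68 TPM among PANC-1 cells. MUC12 overlaps the antisense gene MUC12-AS1, which held 24.4 and 8.40 TPM in the lines, and use of strand in the counting is not given in the sources used here. The sialomucin CD164 held 205 TPM in AsPC-1 mock cells and 410 TPM in PANC-1 mock cells, and MCAM, an adhesion molecule also named MUC18, held 0.120 and 82.6 TPM. Of the 16, 4 were tested, and 0 passed in the 6 construct comparisons and both cell-line differences, with 0 or 1 at an unadjusted p under 0.05 in each. Between the mock cells, where 72.5% of all tested genes passed, CD164 was higher in PANC-1 and MUC12 did not pass. MUC17 entered the test through AsPC-1 alone, and MCAM, at most 0.163 TPM in AsPC-1, through PANC-1 alone. Their lower and higher PANC-1 levels are thus given as a description.

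Mucin-type O-glycosylation builds the sugar chains of all mucins, starting with the GALNT enzymes that add the first sugar. Of 35 such enzymes, 25 were tested. With deltaNp63 in AsPC-1, 4 of the 25 fell and 0 rose, where 6.51% of all tested genes were lower, and the list's median was -0.24 beside -0.12 for all genes. The 4 were GALNT5, GALNT6 and GALNT10, which start chains, and ST3GAL2, which caps them with sialic acid. GALNT5 was at 16.7 and 15.5 TPM with mock and 10.8 and 11.5 TPM with deltaNp63 (log2 difference -0.49, limma adjusted p = 0.0366). GALNT10 was at 1.92 and 2.03 TPM against 0.956 and 1.05 TPM (-0.57, limma adjusted p = 0.0334), and it overlaps MFAP3 and an antisense gene. GALNT6 was at 1.36 and 0.976 TPM against 0.395 and 0.567 TPM (-0.55, limma adjusted p = 0.0489), and it overlaps SLC4A8 on the opposite strand. ST3GAL2 was at 15.2 and 13.7 TPM against 7.50 and 10.8 TPM (-0.62, limma adjusted p = 0.0379).

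These 4 calls lie close to the threshold. The count went to 0 under quantile normalization, median centring or no filter on low values. In these settings 1.35%, 2.84% and 0.824% of all tested genes passed, in place of 7.14%. It also changed when single replicates of either line were left out, as the count over all genes did. With TAp63 in AsPC-1, 0 of 25 passed and 4 had an unadjusted p under 0.05, as 15.1% of all tested genes had. The differences with TAp63 were -0.48 for GALNT5, -0.58 for GALNT6, -0.57 for ST3GAL2 and 0.17 for GALNT10. Thus the differences of GALNT5, GALNT6 and ST3GAL2 were of like size with both constructs, but both are measured against the same 2 mock libraries. GALNT10 was lower with deltaNp63 and not with TAp63. Compared directly, it was 0.74 higher with TAp63 than with deltaNp63, which did not pass (limma adjusted p = 0.309). In PANC-1, 0 of 25 passed with either construct, with 2 and 1 at an unadjusted p under 0.05 for TAp63 and deltaNp63. The constructs compared with each other and both cell-line differences also gave 0 of 25, with 0 to 7 at an unadjusted p under 0.05.

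The lines differed in which O-glycosylation enzymes they held. Between mock cells 23 of 25 passed, 11 higher and 12 lower in PANC-1, where 72.5% of all tested genes passed and 27.9% were lower. GCNT3 and GALNT5 reached 1 TPM in no PANC-1 library, and GALNT16 and GALNT18 in no AsPC-1 library. These and others entered the test through a single line, so a difference between the lines was built into their testing. GCNT3, the mucin-type core branching enzyme, was at 462 and 415 TPM in AsPC-1 mock libraries against 0.0881 and 0.117 TPM in PANC-1. B3GNT3, which extends core chains, was at 126 and 132 TPM against 1.52 and 1.37 TPM. GALNT2 and GALNT7 lay the other way, with mock means of 27.4 and 20.9 TPM in AsPC-1 against 121 and 108 TPM in PANC-1. GALNT1 was high in both, at 105 and 84.8 TPM.

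Of 20 genes for mucus secretion, folding and mucus partners, 19 were matched and 6 were tested, and 0 passed in any construct comparison, with at most 2 at an unadjusted p under 0.05. AGR2, the endoplasmic reticulum disulfide isomerase needed for folding of gel-forming mucins, had mock means of 48.0 TPM in AsPC-1 against 102 TPM in PANC-1. VAMP8, a fusion protein of mucin granules, held 288 and 174 TPM. Lysozyme (LYZ) held 120 TPM in AsPC-1 mock cells and 0.0925 TPM in PANC-1. SYTL2, a granule docking factor, had means over 6 libraries of 16.5 TPM in AsPC-1 against 95.4 TPM in PANC-1.

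Of 20 mucin sheddases and surface partners, 14 were tested. With deltaNp63 in AsPC-1, 1 fell and 0 rose: ICAM1, an adhesion receptor that binds MUC1. Of all tested genes 6.51% were lower in that comparison, a share close to 1 in 14. Mock libraries held 8.74 and 8.87 TPM of it, TAp63 libraries 4.11 and 6.04 TPM, and deltaNp63 libraries 3.91 and 4.35 TPM. The deltaNp63 difference was -0.94 (SE 0.147, limma adjusted p = 0.0122), and that with TAp63 was -0.71 (limma adjusted p = 0.0786). The other construct comparisons and both cell-line differences gave 0 of 14, with 0 to 4 at an unadjusted p under 0.05 in each. In PANC-1 ICAM1 stood far higher, between 157 and 195 TPM in all 6 libraries. Leaving out either AsPC-1 mock replicate or AsPC-1 deltaNp63 replicate 1 ended the ICAM1 call. The number of calls in the list also changed with the library left out, as it did over all genes.

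Between the mock cells 9 of the 14 were lower and 3 higher in PANC-1, with a median of -0.87 beside 0.24 over all genes, of which 72.5% passed and 27.9% were lower. LGALS3, the galectin that binds mucin sugars, had mock means of 1043 TPM in AsPC-1 against 174 TPM in PANC-1. MSLN, mesothelin, the partner of MUC16, held 244 and 1.35 TPM, while MUC16 itself was listed at 0 in both AsPC-1 mock libraries. The membrane protease ADAM9 held 228 and 69.9 TPM.

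Marker levels moved with the line as well. All 6 epithelial markers averaged at least 1 TPM in AsPC-1 and 5 of 6 in PANC-1, where ESRP1 was at 0.288 TPM, and their summed level was 7178 to 10608 TPM in AsPC-1 libraries and 3483 to 3852 TPM in PANC-1 libraries. Of 6 goblet and intestinal secretory markers, SPINK4 (3.46 TPM) and REG4 (1.09 TPM) reached that level in AsPC-1 and none did in PANC-1, with sums of 3.23 to 9.56 and 0 to 0.560 TPM, and CLCA1 was listed at 0 in all 12 libraries. Of 6 mesenchymal markers 3 reached it in each line, of 5 fibroblast markers 1 in each (LUM at 219 TPM in AsPC-1 and COL1A1 at 93.2 TPM in PANC-1), and of 5 leukocyte markers 1 in AsPC-1, LYZ, with PTPRC and CD3E at or near 0. No acinar or islet marker did. The part of these marker levels in the member values was not tested.

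Genes with a pattern like MUC1 were sought among 10221 genes with a mean of at least 5 TPM, over the 6 group means of log2(TPM + 1), each centred on its own mean. The nearest were AFF4 (root mean square difference 0.053), at 46.2, 58.1 and 42.5 TPM in the AsPC-1 groups and 27.3, 24.4 and 29.6 TPM in the PANC-1 groups, and SLC35E4 (0.080). No other member was high enough for this search.

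Promoter windows from RefSeq (GRCh38.p14), of 250 bases before to 50 after a start, were given for MUC1, MUC4, MUC13 and MUC16. The MUC1 sequence upstream of the start at 155192915 is shown because the 2-exon transcript begins beside it. It covers chr1:155192916-155193165 on the minus strand, with TATAAA in capitals, whose first base is 24 bases before the start.
MUC1 upstream: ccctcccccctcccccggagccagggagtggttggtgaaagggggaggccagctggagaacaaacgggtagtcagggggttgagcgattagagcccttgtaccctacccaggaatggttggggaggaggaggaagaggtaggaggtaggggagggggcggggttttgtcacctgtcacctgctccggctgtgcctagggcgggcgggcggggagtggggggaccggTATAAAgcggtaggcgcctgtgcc
TATAAA was found on either strand in the MUC1 windows and in 11.5% of all 35116 windows. The p53 family half-site, searched by name on both strands, was found in the MUC16 windows, and in 6.63% of all windows. CCAAT was found for MUC16 and in 34.6% of all windows. TGTTTAC and GATAA, present in 3.42% and 22.7% of all windows, were found in none of these member windows. A match is a description of these letters and does not show binding.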

How the data were processed

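The deposited values are TPM, in 153329 transcript rows by 12 libraries. Each column sums to 1000000. Libraries came from total RNA through a stranded mRNA kit, per the labels' protocols. The aligner, quantifier, build and annotation are not given in the sources used here. Transcripts were matched to GENCODE v44 (hg38), which covered 91.2% of rows and 89.6% to 90.5% of the TPM of a library, and were summed to genes. Unmatched rows were left out.

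Genes that reached 1 TPM in 2 or more libraries were fitted as log2(TPM + 1) with limma 3.58.1 in R 4.3.3 (6 group means, eBayes with trend, 6 residual degrees of freedom, two-sided). The fit was tested on simulated data for deltaNp63 against mock in AsPC-1 with 14767 genes. It found 83% of 100 genes changed by 1 log2 unit and 93% of 100 changed by 2, with 5 false calls. The simulated noise was independent between genes, with no shift common to a library, unlike real libraries may be. The shares are averages over genes drawn at random, so they do not give the power for a member. Replicates correlated at 0.987 to 0.994 across genes. The samples' replicate numbers were not used as pairs.

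The members and lists were chosen with earlier results of these data known. Named genes were all members, TP63, list genes past the threshold with a construct (at most 4 per list and comparison), the 2 highest of each list in each line, and the 2 genes most like a member of at least 5 TPM in AsPC-1. SYTL2, MUC12-AS1 and the cell markers were named after their values were seen. The alternatives tried were other scalings, filters, a pseudocount of 0.1, smaller sets of libraries, a replicate block and leaving out each replicate.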

Additional observations from a re-analysis of the deposited data

How the results depend on the processing

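No member was called in any of the 6 construct comparisons, or in the cell-line difference for TAp63, under any alternative run; each such count was 0 throughout. For deltaNp63 the cell-line difference gave 0 to 1 members when a replicate was left out, the 1 being TFF3, without AsPC-1 deltaNp63 replicate 2, where the calls over all genes went from 86 to 2203. Between the mock cells 72.5% of all tested genes passed in the main fit. The 3 member calls became 1 with a mean of at least 5 TPM, where 1 member was tested. Most of all tested genes passed between the mock cells in that setting too, and in each fit without a replicate. Leaving out a replicate gave 2 to 4 calls there. TFF1 and TFF2 kept their calls in every alternative that tested them. With the filter they entered the test through AsPC-1 alone, so a difference was built in and these calls are a description. TFF3 also passed under quantile normalization (-0.67, limma adjusted p = 0.0263), and MUC1 did not pass where an absolute difference of 1 was required. Without the low-value filter 4 of 9 members were called, MUC5B, MUC20, TFF1 and TFF2, and MUC1 was not (limma adjusted p = 0.0925). The share of all tested genes called in that setting was close to 4 of 9, so this count does not set the members apart.

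In AsPC-1 cells with deltaNp63, the 4 O-glycosylation enzymes became 0 under quantile normalization, median centring, no low-value filter, a required absolute log2 difference of 1, a fit of the groups compared or a fit of 1 cell line, and 0 to 10 when a replicate was left out. The 1 sheddase or surface partner became 0 under that required difference or either smaller fit, 3 under median centring, 2 with a mean of at least 5 TPM, and 0 to 7 without a replicate. The 0 mucus secretion genes became 2 with a mean of at least 5 TPM and 0 to 2 without a replicate. The cause was not tested. Over all genes, the 1055 calls of this comparison became 0 in a fit of the groups compared, 8 in a fit of 1 line, 199 under quantile normalization, 419 under median centring and 4064 without AsPC-1 deltaNp63 replicate 2.

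With a replicate block, 1633 genes were called with deltaNp63 in AsPC-1, and the O-glycosylation list gave 3 and the sheddase list 3. The members gave 0 with each construct and 3 between the mock cells, where most of all tested genes were called too. Same-numbered samples had deviations that correlated between -0.094 and 0.293 over all tested genes, so the numbers were not taken as pairs. Some members did follow the number: replicate 1 was above replicate 2 for TFF2 in every group and for MUC1 in each PANC-1 group. For MUC1 in AsPC-1 the order differed between groups. With the block the SE of the MUC1 difference with TAp63 in AsPC-1 was 0.184 in place of 0.326. Where a left-out replicate leaves 1 library in a group, that library is assumed to vary like the others. With TPM the read depth is unknown, so no detection limit could be set for members listed at 0.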
